A study of Mus musculus with 22 samples.

Results

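The cytochrome P450 enzymes of families 1 to 4 were followed in mouse liver after a single dose of interferon-gamma. Members were all genes on the array whose symbol begins with Cyp1, Cyp2, Cyp3 or Cyp4 and a further letter, and whose probe set (the group of short probes that reads a transcript) carries that symbol alone. This gave 30 genes of 8251 measured, in 15 subfamilies. The subfamilies with more than 1 member were Cyp1a (2 genes), Cyp2b (4), Cyp2c (4), Cyp2d (3), Cyp2j (2), Cyp3a (4) and Cyp4a (3), and 8 subfamilies had a single member. A further 7 probe sets carried several symbols, a P450 of these families among them, and were not used. Values are log2 expression, so that a difference of 1 is a doubling, and differences carry the standard error (SE) of the fit.

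The 22 livers, 1 array each, came from mice that lack interferon-gamma (IFNg-/-) and from mice that lack both SOCS1 and interferon-gamma (SOCS1-/-IFNg-/-). The cytokine gene was thus deleted in every animal, controls included, and the only interferon-gamma was the injected dose. Mice received 4 µg of recombinant interferon-gamma in 100 µl into the peritoneal cavity, and livers were taken 0.5, 1, 2, 4, 12, 16, 24 and 48 h later. As controls, each genotype had an untreated liver and 2 livers from mice given 100 µl of phosphate-buffered saline (PBS), collected after 4 or 12 h. Each genotype and condition had 1 array, the same 11 conditions in both. The sources used here do not give strain, age, sex or the number of mice behind a liver sample.

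P450 enzymes of these families sit in the endoplasmic reticulum, hold a heme at the active site and take electrons from P450 reductase. Families 1 to 3 oxidise drugs, steroids, bile acids and other foreign or fatty compounds, and family 4 mainly adds a hydroxyl group to the far end of fatty acids. In hepatocytes their genes are read out by ligand-sensing factors: Ahr for Cyp1a, CAR (Nr1i3) for Cyp2b, PXR (Nr1i2) for Cyp3a and PPARalpha (Ppara) for Cyp4a, on a base set by HNF4alpha. Several hepatic P450s are known to fall during inflammation, and interferon-gamma is among the cytokines reported to lower them. SOCS1 is the feedback inhibitor that interferon-gamma itself induces and that blocks JAK kinases.

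The cytokine's target genes were high in both genotypes, and 1 array stood apart. The SOCS1-/-IFNg-/- 4 h array had a median correlation of 0.9724 with the others, where the next lowest had 0.9838, and it had the lowest median of all arrays, 5.64. The joint 4 h values rest in part on it. Without it 60 genes passed at 4 h in place of 415, in a fit where 4 h is 1 array, assumed to vary like the others (limma). Socs1 stood at 9.21 at 2 h in IFNg-/- livers, while no array of a liver without SOCS1 left the range of 6.57 to 7.02. Irf1, an early interferon-gamma target, reached 10.56 in IFNg-/- and 10.38 in SOCS1-/-IFNg-/- livers at 2 h, against 6.47 to 7.57 on the 6 control arrays. Cxcl9, a chemokine gene, stood at 10.53 and 11.41 at 16 h, but the PBS 12 h arrays were also high, at 7.76 and 8.31, against 4.16 to 4.46 on the other controls. Of 14 hepatocyte markers measured, Fgb was higher and Hpd lower at 4 h, neither of which passed without that array, and the summed level of the markers stayed between 15.44 and 15.66 on all arrays. The 3′ minus 5′ signal, a sign of RNA integrity, ran from -0.03, on the SOCS1-/-IFNg-/- 4 h array, to 0.77 for actin and from 0.34 to 0.77 for Gapdh. In whole liver, fewer cells of a type and less RNA per cell cannot be told apart.

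Cyp2c70, Cyp3a11 and Cyp3a16 held the rarest motif searched in the members' promoters, an HNF4alpha-type site, and their sequences are shown for that reason. The lines give the 120 bases before the start that the RefSeq promoter sequences (GRCm38.p6) use, 5′ to 3′ on the gene's strand, with the motif CAAAGTCCA in capitals. Cyp2c70 is on the minus strand at chr19:40187287-40187406, Cyp3a11 on the minus strand at chr5:145879855-145879974, and Cyp3a16 on the minus strand at chr5:145469724-145469843. The RefSeq span of the Cyp3a16 gene ends at 145469740, so the last bases of its line lie inside that span.
Cyp2c70: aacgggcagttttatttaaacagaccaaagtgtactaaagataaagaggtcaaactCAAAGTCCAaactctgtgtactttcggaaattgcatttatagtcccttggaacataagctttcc
Cyp3a11: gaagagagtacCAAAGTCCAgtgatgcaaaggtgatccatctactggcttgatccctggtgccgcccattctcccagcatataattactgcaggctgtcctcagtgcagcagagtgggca
Cyp3a16: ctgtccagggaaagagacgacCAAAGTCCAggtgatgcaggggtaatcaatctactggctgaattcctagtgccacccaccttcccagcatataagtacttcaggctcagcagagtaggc
The motif began 64 bases before the start in Cyp2c70, 109 in Cyp3a11 and 99 in Cyp3a16. Of 27 members with a promoter in the table, these 3 held it within 250 bases on either strand, as did 0.3835% of 32851 windows of that length. The STAT-type motif TTCNNNGAA was found in Cyp4b1 and Cyp4f13 (7.02% of windows). GCGTG, the core bound by Ahr, was found in Cyp1a1, Cyp1b1, Cyp2b10 and Cyp4v3 (28.16% of windows), and TATAAA in 13 members (12.37%). The motifs were searched on both strands, and a match describes letters in a window, not a bound site. Cyp4a10, Cyp4a12b and Cyp4a14 had no entry.

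At no single time did a member pass the test in the mean of both genotypes against the 6 controls. The count was 0 of 30 each time. The share of all genes that passed was 0%, 0.158%, 1.66%, 5.03%, 1.42%, 0.448%, 0.17% and 0.0121% for the 8 times from 0.5 to 48 h. Members with an unadjusted p under 0.05 numbered 4, 2, 4, 2, 8, 11, 9 and 3 at these times in turn, beside 5.79%, 4.48%, 11.1%, 17.9%, 13.3%, 8.45%, 9.88% and 6.69% of all genes. The fits used limma with Benjamini-Hochberg adjustment over all 8251 genes at a threshold of 0.05. The 8 members of 12 h and the 11 of 16 h all lay below the controls. Against PBS of the same hour, 0 members passed at 4 h (1.36% of genes) and 0 at 12 h (0.109%), with 2 and 4 at an unadjusted p under 0.05, beside 12.1% and 7.07% of all genes.

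As a group the members lay slightly below the controls from 2 to 24 h and slightly above them at 48 h, with no member passing at a single time. At 0.5 and 1 h 16 and 17 of 30 were below 0. At 2 h 22 were, with a median difference of -0.07, and at 4 h 24, with a median of -0.09, where 56.3% and 59.8% of all genes lay below 0. Without the SOCS1-/-IFNg-/- 4 h array the 4 h median of the members was -0.10. The median was -0.16 at 12 h and -0.17 at 16 h, with 26 and 27 of 30 below 0, where 58.3% and 51.8% of all genes lay below 0. At 24 h 23 members were below 0, with a median of -0.07. At 48 h 22 members were above 0, with a median of 0.08. Over all genes the median stayed within -0.03 and 0.01 at all 8 times.

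**Figure D1:**
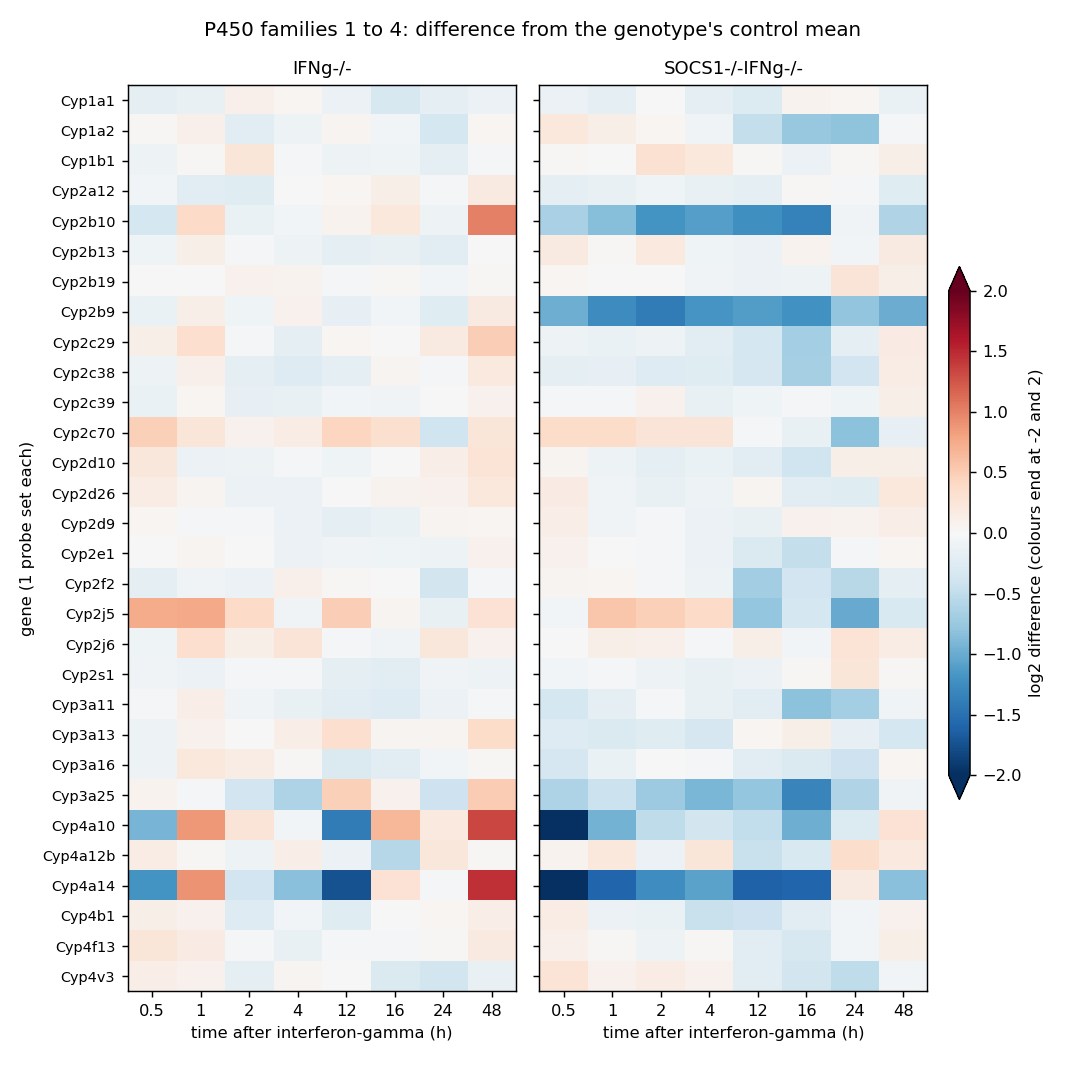
Log2 difference of each of the 30 genes (rows) from the mean of its genotype's 3 control arrays at each time (columns), IFNg-/- on the left and SOCS1-/-IFNg-/- on the right; colours end at -2 and 2. Blue from 12 to 24 h is denser on the right, and Cyp4a10, Cyp4a14, Cyp2b9 and Cyp2b10 carry the deepest colours.

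Set against their own genotype's 3 control arrays, more members lay low at 12 and 16 h in the livers without SOCS1, which was not so at every time. In SOCS1-/-IFNg-/- livers 21 of 30 members were under the lowest control at 12 h, where 30% of all genes were, and 20 at 16 h (22.6% of genes) and 13 at 24 h (23.2%). In IFNg-/- livers the counts were 14 at 12 h (34.6% of genes), 14 at 16 h (32.4%) and 12 at 24 h (23.3%). Earlier, at 0.5, 1, 2 and 4 h, 6, 11, 10 and 16 members lay under the lowest control without SOCS1 (19.6%, 22%, 26.2% and 43.1% of genes). The IFNg-/- counts at those times were 12, 4, 11 and 12 (28.4%, 29.3%, 31.2% and 26.3% of genes). At 48 h they were 5 without SOCS1 (18.9%) and 2 in IFNg-/- livers (34%). The median departure of the members at 16 h was -0.32 in SOCS1-/-IFNg-/- and -0.02 in IFNg-/- livers. At 48 h 16 members exceeded the highest control in IFNg-/- livers (24.7% of genes) and 8 did in SOCS1-/-IFNg-/- livers (26.3%). Each of these counts compares 1 array with 3, so none carries a test. Markers of pericentral hepatocytes, the cells around the central vein where many P450s are found, were low on the same arrays. The summed level of the 10 measured, none of them a P450, was 12.45, 12.35 and 12.56 at 12, 16 and 24 h without SOCS1, against 12.80 to 12.95 in that genotype's controls. In IFNg-/- livers it was 12.78, 12.79 and 12.68, against 12.73 to 12.83. The low sum was not confined to these times. At 4 h it was under the controls of its genotype in both, at 12.57 in IFNg-/- and 12.63 without SOCS1. Without SOCS1 it was also under them at 0.5 and 2 h, at 12.69 each time. Of these markers 0 passed at any single time. Over the 8 times 1 passed, Lect2, and its largest departure was upward, at 0.50. The part of these markers in the P450 values was not tested. Summed markers of periportal hepatocytes, 9 genes, were 14.18, 14.11 and 14.03 at 12, 16 and 24 h without SOCS1, against 14.29 to 14.31 in controls.

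The genotype difference of the response was tested on the 11 within-condition pairs, and no member passed. For the late pairs (12 to 48 h) minus the control pairs the count was 0 of 30, with 0% of all genes passing, and for the early pairs (0.5 to 4 h) it was also 0 (0% of genes). In the late comparison 9 members had an unadjusted p under 0.05, all 9 of them lower in SOCS1-/-IFNg-/- livers: Cyp1a2, Cyp2b9, Cyp2b10, Cyp2c29, Cyp2c38, Cyp2c70, Cyp2f2, Cyp2j5 and Cyp3a25. The lowest adjusted p among them was 0.225. Over all genes 11.4% had an unadjusted p under 0.05 there. In the early comparison 3 members did, Cyp2b9, Cyp4a10 and Cyp4a14, beside 3.48% of all genes.

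Of the 30 members, 3 passed the F test over the 8 times (limma), which asks whether a gene left its control level at any time: Cyp4a12b, Cyp2c70 and Cyp4v3. Of all genes 5.1% passed, the equal of 1 or 2 in 30, and nothing is read from the count itself. With a further 12, Cyp1a2 and Cyp4a10 among them, 15 members had an unadjusted p under 0.05, beside 19.8% of all genes. The largest departure of each of the 3 was downward, at 16 h for Cyp4a12b and at 24 h for Cyp2c70 and Cyp4v3.

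Cyp2c70 makes the muricholic bile acids that set rodents apart from humans, and its transcript was lowest at 24 h. It was 9.82 untreated, 9.84 at PBS 4 h and 10.04 at PBS 12 h in IFNg-/- livers, then 10.38, 10.15, 9.99, 10.05, 10.32, 10.22, 9.49 and 10.15 from 0.5 to 48 h. In SOCS1-/-IFNg-/- livers it was 10.16, 10.10 and 9.85 in the controls, then 10.39, 10.39, 10.30, 10.30, 10.01, 9.88, 9.21 and 9.86. The 24 h array was the lowest of its genotype in both, and the 0.5 h arrays lay above every control. The differences from controls were -0.62 ± 0.14 (SE) at 24 h, a change of -34.7%, and 0.42 ± 0.14 at 0.5 h, with an adjusted p of 0.0424 over the 8 times (limma). The call was lost when the pair of PBS 12 h, 0.5 h, 1 h or 24 h was left out, with an adjusted p of 0.508 without the 24 h pair.

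Cyp4v3, a fatty acid hydroxylase and the mouse counterpart of human CYP4V2, was lowest at 16 and 24 h in both genotypes. IFNg-/- controls were 10.98, 11.25 and 10.84, and the arrays from 0.5 to 48 h read 11.16, 11.11, 10.83, 11.07, 11.01, 10.73, 10.66 and 10.88. SOCS1-/-IFNg-/- controls were 11.08, 10.85 and 10.76, and the arrays from 0.5 to 48 h read 11.17, 10.99, 11.04, 10.99, 10.67, 10.54, 10.40 and 10.84. At 16 and 24 h both genotypes stood below all of their own controls. The difference was -0.33 ± 0.10 (SE) at 16 h and -0.43 ± 0.10 at 24 h, with an adjusted p of 0.0471 over the 8 times (limma). This call held in 4 of the 11 fits with a pair removed and under 2 of 9 other settings, with adjusted p-values up to 0.186. Without the SOCS1-/-IFNg-/- 4 h array alone it was lost (adjusted p = 0.0572).

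Cyp4a12b, a male-predominant fatty acid hydroxylase, was the member lower without SOCS1 in all 11 conditions. Cyp2d9 was lower in 10 of 11, with a median difference of -0.12, and did not pass. Cyp4a12b was 10.52, 10.53 and 10.13 in the controls and 10.54, 10.42, 10.30, 10.52, 10.27, 9.83, 10.61 and 10.41 from 0.5 to 48 h in IFNg-/- livers. In SOCS1-/-IFNg-/- livers it was 9.96, 10.12 and 9.47 in the controls and 9.92, 10.06, 9.73, 10.10, 9.40, 9.55, 10.20 and 10.04 from 0.5 to 48 h. Within each of the 11 conditions the liver without SOCS1 was lower, by 0.28 to 0.86, although the ranges of the genotypes overlapped across conditions.

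Over all pairs Cyp4a12b differed by -0.51 ± 0.053 (SE), SOCS1-/-IFNg-/- minus IFNg-/-, with means of 9.87 and 10.37, a difference of -29.6% (limma, adjusted p = 0.000756). It was the 1 member of 30 that passed, where 0.218% of all genes did, and 11 members had an unadjusted p under 0.05, beside 8.61% of all genes. The call held in all 11 fits with a pair removed, with differences from -0.53 to -0.46, and was lost when arrays were not paired by condition (adjusted p = 0.116). The untreated and both PBS pairs showed the difference as well. Cyp4a12a is a nearly identical gene, and the probe set may read both transcripts.

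Over time Cyp4a12b was lowest at 12 and 16 h and high at 24 h. Its 12, 16 and 24 h differences from controls were -0.29, -0.43 and 0.28, each ± 0.095 (SE), with an adjusted p of 0.014 over the 8 times (limma). Without the 16 h pair that p was 0.0621, and without the genotype term it was 0.713. The PBS 12 h arrays were themselves low, 10.13 and 9.47. Against PBS of the same hour the 12 h difference was 0.03, and with both PBS 12 h arrays left out the 16 h difference of -0.59 passed (adjusted p = 0.0125), as did that of 12 h, -0.45 (adjusted p = 0.0427). At 16 h, which had no PBS liver of its own, the hour and the injection cannot be told apart from interferon-gamma.

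**Figure D2:**
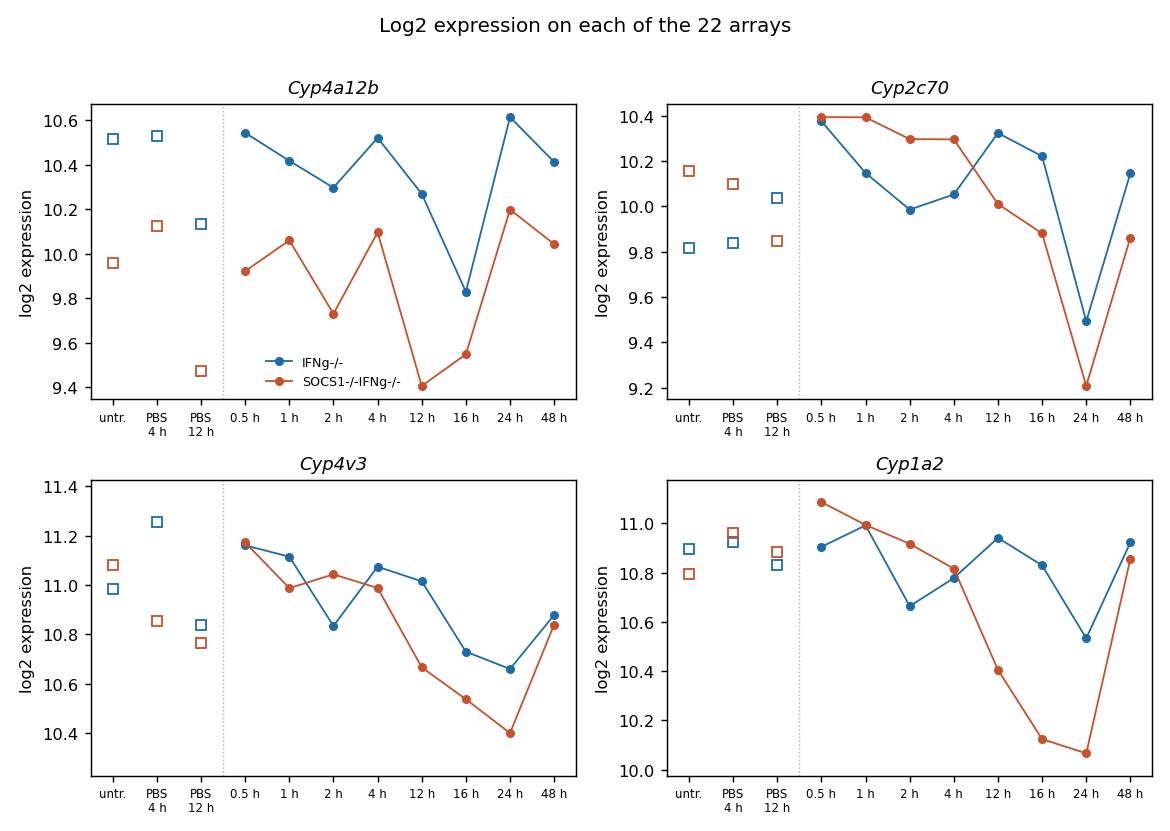
Log2 expression of Cyp4a12b, Cyp2c70, Cyp4v3 and Cyp1a2 on each of the 22 arrays, with control arrays as open squares, livers after interferon-gamma as joined points, IFNg-/- in blue and SOCS1-/-IFNg-/- in orange. Each panel has its own vertical range; Cyp4a12b is lower without SOCS1 in all 11 conditions, and Cyp2c70 has its lowest point at 24 h in both genotypes.

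In the Cyp1a subfamily, Cyp1a2, which oxidises aromatic amines and caffeine in pericentral hepatocytes, was low from 12 to 24 h in livers without SOCS1. It was 10.41, 10.12 and 10.07 at 12, 16 and 24 h there, against 10.79 to 10.96 in that genotype's controls, and 10.86 at 48 h. In IFNg-/- livers it was 10.94, 10.83 and 10.53 at the same times, against controls of 10.89, 10.92 and 10.83. At 16 h the IFNg-/- array was level with its lowest control, and at 24 h both genotypes lay under theirs. The difference from controls at 24 h was -0.58 ± 0.16 (SE; limma, adjusted p = 0.194), and the late genotype difference was -0.44 ± 0.13 (adjusted p = 0.254). Cyp1a1, the most inducible Ahr target, ran between 4.38 and 4.90 and Cyp1b1, mainly an enzyme of tissues other than liver, between 4.20 and 4.65. Both probe sets were below the 0.25 quantile of mean level over all genes, as were those of Cyp2b13, Cyp2j6 and Cyp3a16, and signal over background limits what can be seen there. Cyp1b1 was highest in both genotypes at 2 h, 4.62 and 4.65, a difference of 0.27 ± 0.07 that did not pass (adjusted p = 0.0819) except with array weights, without the 4 h pair or without the SOCS1-/-IFNg-/- 4 h array alone.

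The Cyp2b subfamily holds CAR targets that metabolise phenobarbital-type drugs, and 2 of its 4 members varied widely. Cyp2b10 was 7.52, 7.12 and 7.07 in IFNg-/- controls and 7.35, 7.79 and 8.79 in SOCS1-/-IFNg-/- controls. After interferon-gamma it was 6.79, 6.87, 6.75 and 6.62 at 2, 4, 12 and 16 h in SOCS1-/-IFNg-/- livers and 7.10, 7.18, 7.30 and 7.45 in IFNg-/- livers. The livers without SOCS1 thus lay under all 3 of their controls at these 4 times, and the others did not. Cyp2b9, a female-predominant gene, was 5.03, 5.46 and 6.94 in SOCS1-/-IFNg-/- controls and stayed between 4.42 and 5.02 at all 8 times after the cytokine. Its IFNg-/- arrays stayed between 4.50 and 4.92 on all 11 arrays.

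Much of this Cyp2b difference rested on the SOCS1-/-IFNg-/- PBS 12 h array. The late minus control genotype difference was -1.11 ± 0.44 (SE) for Cyp2b10 and -0.95 ± 0.35 for Cyp2b9, with limma's adjusted p-values of 0.355 and 0.329. Without the PBS 12 h pair it was -0.61 ± 0.42 and -0.36 ± 0.20. The same array held the highest Cyp4a10 and Cyp4a14 values of the series. It also held the lowest Hsd3b5 (7.96, against 8.65 to 10.06 elsewhere) and Elovl3 (4.54, against 4.78 to 6.16), both male-predominant liver genes. Both were named after their values were seen, and other sex-biased liver genes are not described for that array. Xist, which marks female cells, ran from 2.95 to 3.47 over all arrays and the Y-linked Eif2s3y from 4.94 to 5.90, with no gap in either. The part of these genes in the Cyp2b values was not tested. The remaining Cyp2b members, Cyp2b13 and the keratinocyte gene Cyp2b19, had ranges of 0.37 and 0.38 over the 22 arrays.

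The other Cyp2c members turn arachidonic acid into epoxides or hydroxylate retinoids, and Cyp2c29 was lowest at 16 h without SOCS1. Cyp2c29 was 7.26, 7.62 and 7.40 in SOCS1-/-IFNg-/- controls and 7.22, 7.08, 6.75, 7.24 and 7.59 at 4, 12, 16, 24 and 48 h. IFNg-/- livers read 7.35, 7.27 and 7.17 in controls and 7.08, 7.30, 7.25, 7.44 and 7.76 at the same times. Its late genotype difference was -0.44 ± 0.14 (SE; limma, adjusted p = 0.254). Cyp2c38 had its minimum of 9.74 on the same SOCS1-/-IFNg-/- 16 h array, where Cyp2c39 stayed at 7.25, within a total range of 0.29. The Cyp2c38 probe set is of a type shared within a gene family, so related Cyp2c transcripts may contribute to it.

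No single-gene subfamily of family 2 passed a test. Cyp2e1, which oxidises ethanol, acetone and paracetamol, read 12.63 to 12.82 on 11 IFNg-/- arrays. It was 12.42 and 12.24 at 12 and 16 h in SOCS1-/-IFNg-/- livers, whose controls were 12.68 to 12.77. Its 16 h difference of -0.28 ± 0.084 (SE) did not pass (limma, adjusted p = 0.243). Cyp2f2, a naphthalene-activating enzyme, was 10.24, 10.55 and 10.38 at 12, 16 and 24 h without SOCS1, against controls of 10.88 to 11.05, and 11.01, 10.97 and 10.62 in IFNg-/- livers, against 10.83 to 11.15. Here too the lower values lay on the side without SOCS1, and 24 h was low in both. Cyp2a12, a testosterone hydroxylase, ranged from 9.91 to 10.42, and Cyp2s1, an enzyme of surface epithelia, from 5.29 to 5.68.

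In the Cyp2j subfamily of arachidonic acid epoxygenases, Cyp2j5 lay above its controls at 1 and 2 h in both genotypes. Without SOCS1 alone it lay below them from 12 to 48 h. It was 6.73, 6.73, 6.36 and 5.91 from 0.5 to 4 h in IFNg-/- livers, against controls of 5.80 to 6.16, and 5.86, 6.48, 6.40 and 6.30 in SOCS1-/-IFNg-/- livers, against 5.88 to 5.96. From 12 to 48 h it was 6.48, 6.04, 5.82 and 6.27 in IFNg-/- livers but 5.14, 5.56, 4.91 and 5.61 without SOCS1, all 4 under that genotype's controls. The late genotype difference was -0.78 ± 0.25 (SE; limma, adjusted p = 0.274), and the 1 h difference from controls was 0.66 ± 0.25 (adjusted p = 0.868). Cyp2j6 stayed between 2.11 and 2.55, near the bottom of the scale. The 3 Cyp2d members, which include the male-predominant testosterone hydroxylase Cyp2d9, had ranges of 0.40 to 0.65. Cyp2d10, the member of that subfamily with the highest mean, was 11.70 and 11.53 at 12 and 16 h without SOCS1, against controls of 11.87 to 12.03.

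Among the Cyp3a genes, the PXR target Cyp3a11, the main drug-oxidising form of mouse liver, was lowest at 16 and 24 h in livers without SOCS1. It was 10.82 and 10.96 there, against controls of 11.18, 11.88 and 11.85, and 11.57 at 48 h. The IFNg-/- livers read 11.44, 11.40 and 11.55 at 12, 16 and 24 h, against controls of 11.64, 11.75 and 11.61. Both genotypes thus lay under their controls at 16 and 24 h. The difference was -0.54 ± 0.15 (SE) at 16 h, a change of -31.4%, and it did not pass (limma, adjusted p = 0.18).

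Cyp3a25 had the largest range of the Cyp3a members, and its controls varied as well. In SOCS1-/-IFNg-/- livers it was 8.81 untreated, 9.74 at PBS 4 h and 10.06 at PBS 12 h, and 8.22 at 16 h. In IFNg-/- livers the controls were 9.11, 9.63 and 9.49, and the lowest value was 8.79 at 4 h. Its difference was -0.77 ± 0.25 (SE) at 4 h (limma, adjusted p = 0.0995), -0.98 ± 0.31 against PBS of the same hour (adjusted p = 0.161), and 0.77 ± 0.27 for PBS against untreated (adjusted p = 0.308). Cyp3a13 was not low at 12 h, with 9.49 and 9.43 at 12 h against controls of 9.03 to 9.24 and 9.10 to 9.68. Cyp3a16, mainly a fetal form, ran from 3.32 to 4.04.

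The Cyp4a genes encode fatty acid omega-hydroxylases, and Cyp4a10 and Cyp4a14, PPARalpha targets, had the widest ranges of all members, 3.48 and 4.53. Cyp4a14 was 5.79, 6.80 and 7.13 in IFNg-/- controls and 5.38, 7.48, 6.20, 5.73, 4.83, 6.87, 6.54 and 8.04 from 0.5 to 48 h. In SOCS1-/-IFNg-/- livers it was 7.23, 8.41 and 9.36 in controls and 5.07, 6.74, 7.10, 7.25, 6.71, 6.75, 8.50 and 7.49 from 0.5 to 48 h. Low points shared by both genotypes were at 0.5 h, and at 12 h the IFNg-/- liver alone reached its minimum.

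Cyp4a10 followed a similar course. It was 6.54, 7.42 and 7.77 in IFNg-/- controls and 6.31, 8.12, 7.50, 7.19, 5.84, 7.90, 7.45 and 8.59 from 0.5 to 48 h. In SOCS1-/-IFNg-/- livers it was 7.82, 8.81 and 8.89 in controls and 5.40, 7.57, 8.00, 8.15, 8.02, 7.53, 8.23 and 8.79 from 0.5 to 48 h. The 0.5 h arrays lay under every control of their genotype for both genes. Probes of the Cyp4a10 set are of the type shared within a gene family, so related Cyp4a transcripts may contribute to it.

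None of these Cyp4a10 and Cyp4a14 differences passed the test. At 0.5 h Cyp4a10 differed by -2.02 ± 0.44 (SE) and Cyp4a14 by -2.23 ± 0.52 (limma, adjusted p = 0.369 for both). At 12 h against PBS of the same hour Cyp4a14 differed by -2.48 ± 0.64 (adjusted p = 0.252) and Cyp4a10 by -1.40 ± 0.54 (adjusted p = 0.546). PBS arrays themselves stood above untreated ones, by 1.42 ± 0.56 for Cyp4a14 and 1.04 ± 0.47 for Cyp4a10, in a comparison where 0 of 30 members and 0.0242% of genes passed and 7 members had an unadjusted p under 0.05, beside 11.7% of all genes. Over all pairs both were higher without SOCS1 but did not pass, by 0.96 ± 0.25 for Cyp4a14 in 7 of 11 pairs (adjusted p = 0.193) and 0.65 ± 0.21 for Cyp4a10 in 8 of 11 pairs (adjusted p = 0.329), with the sign opposite to Cyp4a12b.

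**Figure D3:**
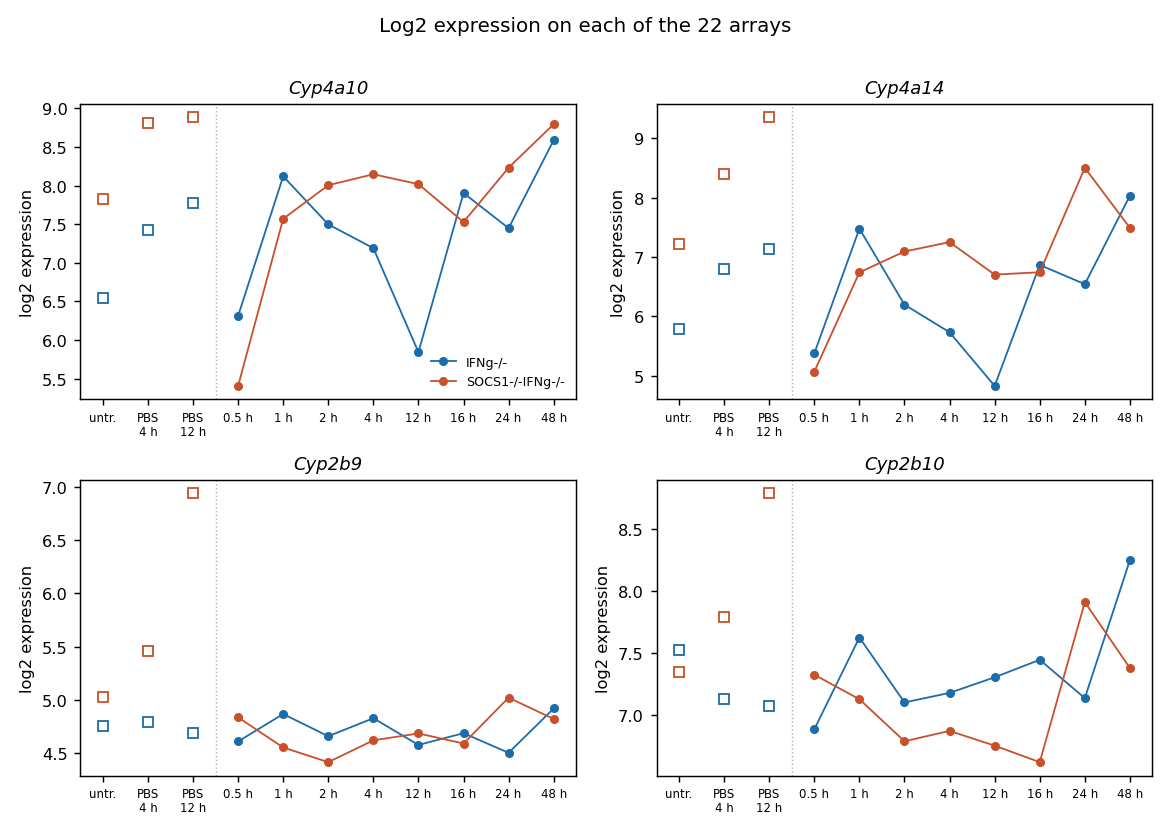
Log2 expression of Cyp4a10, Cyp4a14, Cyp2b9 and Cyp2b10 on each of the 22 arrays, drawn as open squares for controls and joined points for livers after interferon-gamma, IFNg-/- in blue and SOCS1-/-IFNg-/- in orange. Panels differ in vertical range; the SOCS1-/-IFNg-/- PBS 12 h array is the highest of all 22 in each panel, at 8.89, 9.36, 6.94 and 8.79.

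The remaining family 4 genes varied less. Cyp4b1, which hydroxylates fatty acids and activates aromatic amines, was 7.43 and 7.31 at 12 h, against controls of 7.59 to 7.79 and 7.66 to 7.84, a difference of -0.33 ± 0.087 (SE) that did not pass (limma, adjusted p = 0.0862) except without the 4 h pair or its SOCS1-/-IFNg-/- array alone. The Cyp4b1 probe set, like that of Cyp4a10, is of the type shared within a gene family, so related transcripts may contribute to it. Cyp4f13, of the subfamily that inactivates leukotrienes, ranged from 7.25 to 7.85, with its minimum on the SOCS1-/-IFNg-/- 16 h array.

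Set side by side at 16 h, all 7 subfamilies with more than 1 member had the lower median in livers without SOCS1. The median departure from own controls was -0.56 in SOCS1-/-IFNg-/- and -0.08 in IFNg-/- livers for Cyp3a, -0.41 and 0.03 for Cyp2c, -0.66 and -0.02 for Cyp2b, -0.22 and 0.01 for Cyp2d, -0.98 and 0.29 for Cyp4a, -0.21 and 0.00 for Cyp2j, and -0.34 and -0.18 for Cyp1a. The median of all genes was 0.02 and -0.02. The controls without SOCS1 include the PBS 12 h array, the highest of the series for Cyp2b9, Cyp2b10, Cyp4a10 and Cyp4a14. Of the 8 single genes, Cyp2s1 went the other way, at 0.02 without SOCS1 and -0.22 in IFNg-/- livers. Within the 7 subfamilies Cyp1a1, Cyp2b13, Cyp2c39, Cyp2d9, Cyp2j6, Cyp3a13 and Cyp4a12b also did. Cyp1a1 stood at 0.07 without SOCS1 and -0.31 in IFNg-/- livers, and Cyp4a12b at -0.30 and -0.57. Nor did the order hold at each late time: Cyp4a was -0.49 without SOCS1 and -1.40 in IFNg-/- livers at 12 h, and Cyp2b was -0.06 and -0.16 at 24 h. At 48 h the medians of Cyp2c (0.13 and 0.22), Cyp2d (0.13 and 0.21) and Cyp4a (0.19 and 1.34) were above 0 in both genotypes. At any single time a genotype is 1 array, so these medians are descriptions, and the late test of each member, with no call, is the comparison that bears on them.

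**Figure D4:**
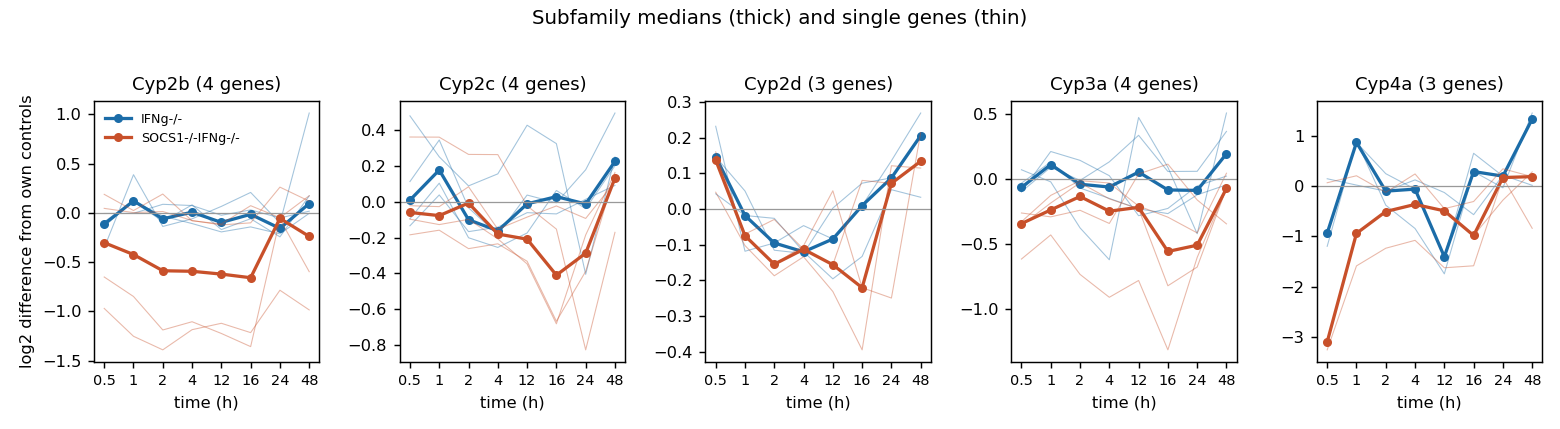
Log2 difference from the genotype's own 3 controls by time for 5 subfamilies, with single genes as thin lines and the subfamily median as a thick line, IFNg-/- in blue and SOCS1-/-IFNg-/- in orange. Vertical ranges differ between panels; at 16 h the orange median is below the blue in all 5.

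The genes that supply and steer P450 enzymes were mostly not called. Alas1, which catalyses the rate-limiting step of heme synthesis, ran from 8.53 to 10.85, with a 24 h difference of 0.87 ± 0.54 (SE; limma, adjusted p = 0.656) and a late genotype difference of 1.67 ± 0.53 (adjusted p = 0.274). Hmox1, which breaks heme down, rose by 0.41 ± 0.09 at 2 h (adjusted p = 0.0396) and was 0.37 ± 0.09 at 4 h (adjusted p = 0.0323, and 0.377 without the SOCS1-/-IFNg-/- 4 h array), the 1 gene called among 10 heme genes. Por, the P450 reductase, was not among the genes tested, and 0 of 6 other electron donors passed at any time.

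Of 23 xenobiotic and nuclear receptor genes, 1 was lower at 2 h and 1 higher at 12 h. The first was Nr0b2, the bile acid-induced repressor SHP, at -0.87 ± 0.17 (SE; limma, adjusted p = 0.016), and the second Nfe2l2, the antioxidant factor NRF2, at 0.57 ± 0.10 (adjusted p = 0.0104). Nr1i3 was -0.46 ± 0.13 at 4 h (adjusted p = 0.0605) and Nr1i2 -0.22 ± 0.10 (adjusted p = 0.245). Ahr ran from 5.73 to 6.76, Ppara from 7.04 to 9.41 and Hnf4a from 7.80 to 9.19, and no comparison of these receptors passed. The largest Hnf4a difference was -0.68 ± 0.18 at 48 h (adjusted p = 0.36). Nr1h3, the liver X receptor LXRalpha, passed over the 8 times. The lowest Ppara value was the SOCS1-/-IFNg-/- 4 h array. Of 11 liver-enriched transcription factors, Cebpd rose by 1.65 ± 0.35 at 2 h (adjusted p = 0.0259) and Foxa3 by 1.52 ± 0.18 at 4 h (adjusted p = 0.000218), or by 1.16 ± 0.20 without the SOCS1-/-IFNg-/- 4 h array (adjusted p = 0.0138).

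Among other enzymes of the same programmes, a few genes passed. Cyp8b1, the sterol hydroxylase that makes cholic acid, was 1 of 12 P450 genes of other families to pass, at -0.71 ± 0.14 (SE; limma, adjusted p = 0.00842) at 4 h. Without the SOCS1-/-IFNg-/- 4 h array it was -0.80 ± 0.19 and did not pass there (adjusted p = 0.0837), but it passed over the 8 times. Of 22 PPARalpha targets other than P450, 3 were lower at 12 h: Acaa1b at -0.87 ± 0.16 (adjusted p = 0.0119), Acot1 at -0.64 ± 0.12 (adjusted p = 0.012) and Slc25a20 at -0.39 ± 0.09 (adjusted p = 0.038). Acaa1b was also lower at 16 h, and Pdk4 rose at 2 h by 0.69 ± 0.15 (adjusted p = 0.0318). At 4 h Cpt1a was higher and Acadvl lower, and neither passed without the SOCS1-/-IFNg-/- 4 h array (adjusted p = 0.366 and 0.249). Of 36 conjugation enzymes, Nqo1 was lower at 4 h (adjusted p = 0.0144, and 0.0521 without that array), Gstm1 at 12 h and the carboxylesterase Ces1d at 16 h, at -1.27 ± 0.22 (adjusted p = 0.0119). Over the 8 times 5 of the 36 passed (5.1% of all genes), and 2 had their largest departure upward, Gsta2 (1.01) and Ces1g (0.91). Without the SOCS1-/-IFNg-/- 4 h array the largest departure of Ces1g was -1.07. The list's median at 16 h was -0.15, beside -0.17 for the 30 P450 members and 0.00 for all genes. Of 10 transporters Abcc3 rose at 48 h, by 0.80 ± 0.11 (limma, adjusted p = 0.0264). Against PBS of the same hour 0 genes of these lists passed at 4 or 12 h (1.36% and 0.109% of all genes). The same held for the heme, receptor and liver-enriched factor lists above. At 12 h against PBS 0 of 14 interferon-gamma indicator genes, Cxcl9 among them, passed either.

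The acute phase response was under way from 2 to 24 h, when the P450 members lay slightly below the controls and none passed. Of 26 acute phase genes, 5 rose at 2 h and 14 at 4 h, and 12 rose and 1 fell at 12 h. At 16 h 10 rose, and at 24 h 5 did. Of all genes 1.66%, 5.03%, 1.42%, 0.448% and 0.17% passed at these times. The 4 h count rests in part on the SOCS1-/-IFNg-/- 4 h array. Against PBS of the same hour 6 rose at 4 h (1.36% of genes passed) and 5 at 12 h (0.109%). The list's median for PBS against untreated was 0.33. Of 14 clock genes, Cry1, Nr1d1 and Per2 passed the F test over the 8 times, with largest departures of -0.86, -0.935 and 0.33. The calls of Cry1 and Nr1d1 rested in part on the SOCS1-/-IFNg-/- 4 h array. Without it the largest departure of Cry1 was 0.82. Of 11 sex-biased liver genes other than P450, Egfr was higher at 4 h, a call lost without that array (adjusted p = 0.197). The part of these programmes in the P450 values was not tested.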

How the data were processed

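RNA from 22 mouse livers was measured on Affymetrix 3-prime arrays. The deposited values are log2 expression per probe set, already normalized between arrays by the authors; the submitters' processing notes name affy, and no source used here gives the background correction, the normalization or the summary. Values ran from 1.73 to 13.5, and array medians from 5.64 to 5.71. Of 12488 probe sets, 66 controls were left out, 10833 had 1 symbol, 396 several and 1193 none. Each gene kept the probe set with the highest mean over the arrays, giving 8251 genes; 4 of 30 members had more than 1. The number of arrays limits precision.

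Fits used limma 3.58.1 (lmFit and eBayes) in R 4.3.3, two-sided, with Benjamini-Hochberg adjustment over 8251 genes at 0.05. Responses came from an additive model of condition and genotype (10 residual degrees of freedom), and genotype differences from the 11 within-condition pairs by phase (8 residual degrees of freedom). Both were tested on simulated data. With no replicates, p-values measure the spread between these arrays, which may be technical, and where both genotypes respond differently that difference enlarges it.

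Members, lists, tests and alternatives were chosen with earlier results of these data known. Named were every member passing a test, the member with the highest mean per subfamily, a set list of members and regulators, and up to 4 passing genes per list; other members named for their values, and Hsd3b5 and Elovl3, were chosen after these were seen. Sequences and motifs came from RefSeq promoters (GRCm38.p6), with 27 of 30 members matched.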

Additional observations from a re-analysis of the deposited data

How the results depend on the processing

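Counts of members passing moved by 1 or 2 genes. With array weights 1 member passed at 2 h (Cyp1b1) and 2 in the genotype difference over all pairs (Cyp4a12b and Cyp2j5). Quantile normalization applied again gave 1 at 4 h (Cyp2d26, -0.29, adjusted p = 0.0349). Leaving out both PBS 12 h arrays gave 1 at 12 h, 1 at 16 h and 1 over the 8 times. With no replicate block, the response fit had no genotype term, and 1 passed over the 8 times. The genotype comparison was then not paired by condition, and 0 passed in the genotype difference over all pairs. Fits without a pair gave 0 to 1 members at 2, 12 and 16 h, 1 to 4 over the 8 times and 1 in the genotype difference in every fit. In the other comparisons no setting changed the 0. No difference of a member that passed under any setting changed sign. The F test over the 8 times was left out of this check of signs. The largest departures of Cry1 and Ces1g in that test did change sign, as given above. Without the SOCS1-/-IFNg-/- 4 h array alone, an alternative added after the data were seen, 1 member passed at 2 h (Cyp1b1), 1 at 12 h (Cyp4b1) and 2 over the 8 times. Trend and robust eBayes, the filter on low genes, the mean of all probe sets and leaving out the untreated arrays changed no count of members beyond 1.5 times.

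Numbers of all genes passing moved more: 6 to 47 at 1 h (13 as reported), 86 to 420 at 2 h (137), 60 to 459 at 4 h (415), 53 to 187 at 12 h (117), 15 to 60 at 16 h (37), 7 to 22 at 24 h (14), 23 to 108 at 4 h against PBS (112), 0 to 32 at 12 h against PBS (9), 1 to 51 for PBS against untreated (2), 268 to 518 over the 8 times (421), 4 to 71 for genotype over all pairs (18) and 0 to 62 for the late genotype difference (0). Array weights gave the highest count at 2 h, and leaving out the SOCS1-/-IFNg-/- 4 h array the lowest at 4 h. With the untreated and PBS 4 h arrays as the only controls, also added then, members under the lowest control were counted at 12, 16 and 24 h. They numbered 16, 15 and 14 for IFNg-/- livers, where 45.1%, 43.4% and 35.1% of all genes were under it. For livers without SOCS1 they numbered 22, 22 and 14, beside 37%, 29.5% and 28.7% of all genes. Subfamily medians of a single genotype departed from the joint ones by more than the spread between genotypes in 8 IFNg-/- and 4 SOCS1-/-IFNg-/- values. In 112 and 116 values they did not. For subfamilies of 1 or 2 genes the joint median is the midpoint of the genotypes, so this rule could not be exceeded there. Nothing is read from those values. The covariate for sex was not run, since Xist showed no gap. The cause of these changes was not tested. With 1 array per condition and 5 members below the 0.25 quantile of signal over all genes, small changes in those genes could not be seen.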
